A study of Mus musculus with 6 samples.

Results

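DES epithelial cluster 13 held 123 cells from the uteri of mice that had received diethylstilbestrol (DES), a synthetic estrogen, as newborns. Its cells were all those that the authors' annotation put in cluster 13 of their clustering of the DES epithelium, and they made up 2.67% of the 4608 cells in the 16 DES epithelial clusters (95% exact Clopper-Pearson interval 2.22–3.18%). The other 15 DES clusters, with 4485 cells in all and 54 to 669 cells each, were the cells of comparison. The clusters were formed from the counts compared here, so that every value of cluster 13 against the other clusters is a description and no test was made between them. Intervals on these values cover counting error only.

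Uteri of female CD-1 mice were dissociated for droplet single-cell RNA-seq at 12 months of age. The control (CO) mice had received corn oil, and the DES mice 1 mg/kg/day of DES, by injection on days 1 to 5 after birth. A single library was made per treatment, from 2 pooled CO mice in estrus and from 4 pooled DES mice, which were in persistent estrus, so that the values of a cluster carry no spread between mice, and the mouse of origin of a cell was not analysed here. Uterine sections of 2 CO and 2 DES mice, 1 section per mouse, were also profiled on spatial transcriptomics slides, and 48699 cells with counts made up the single-cell table.

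WNT7A is a ligand that the epithelium of the Müllerian duct and of the uterus secretes, and uterine gland formation depends on it. Klk1 encodes a tissue kallikrein, a serine protease, and marks developing uterine glands. Female mammals equalize the dose of X-linked genes with males by silencing a single X chromosome in each cell. The long noncoding RNA Xist is made from the silenced chromosome and coats it, and a few genes, among them Kdm6a, Kdm5c, Eif2s3x and Ddx3x, escape the silencing and are read from both copies.

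All 123 cells had passed the authors' quality filter and were named epithelial by them. Cluster 13 held 3806756 UMIs (unique molecular identifiers, each standing for a captured RNA molecule), with a median of 21701 UMIs and 4851 detected genes per cell and 11.2% of UMIs from mitochondrial genes. These values lay within the range of the other clusters' medians, which ran from 6344 to 65030 UMIs, from 2444 to 7200 genes and from 7.90 to 13.2% mitochondrial UMIs. Of the 6 epithelial markers none was over 1.5-fold higher or lower than in the other DES epithelial cells, and Epcam, an epithelial adhesion molecule, stood at 883 counts per 1000000 UMIs (CPM) in cluster 13 and at 804 CPM in the others. The lists of markers for stromal, smooth muscle, endothelial, mesothelial, pericyte, lymphocyte and ciliated cells held no gene that reached 20 CPM in either group. The CO and DES libraries shared 180 cell barcodes, 4 of them in cluster 13.

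Both genes that name the cluster were higher in it than in any other DES cluster. Wnt7a (chr6:91363981-91411363, mm10) stood at 96.7 CPM (95% exact Poisson interval 87.0–107) against 61.8 CPM in the other cells, a ratio of 1.56 (exact conditional interval 1.41–1.74). The other clusters formed a continuous range below it, since cluster 2 followed at 89.8 CPM and cluster 9 at 86.9 CPM, while cluster 5 was lowest at 39.7 CPM. Without cells over 10% mitochondrial UMIs the log2 ratio of Wnt7a was 0.32, which is within 1.5-fold. Klk1 (chr7:44225360-44229618, mm10) stood at 25.2 CPM (20.4–30.8) against 1.24 CPM, a ratio of 20.4 (15.8–26.2), and the next clusters were 11 at 5.89 CPM and 8 at 5.85 CPM. Klk1 was thus a gene of few molecules in a minority of the cells, with 96 UMIs in 49 cells (39.8%) and at most 7 UMIs in a cell, whereas 102 cells (82.9%) held a UMI of Wnt7a and 41 held both.

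Because shares of cells with a UMI follow depth, each cell was thinned to 3000 UMIs. Wnt7a was then seen in 27.6% of cluster 13 cells (exact Clopper-Pearson interval 20–36.4%) against 16.5% of the other DES epithelial cells. In 2 cell classes of the same library that should lack it the share was 1.16% (mesothelial cells, median 12329 UMIs before thinning) and 3.29% (lymphocytes, median 5599 UMIs). The Wnt7a share of cluster 13 was thus above that of both classes. The level of free RNA was not estimated. Klk1 was seen in 8.13% (3.97–14.4%) of the thinned cluster 13 cells and in 0.428% of the other DES epithelial cells, but also in 7.06% (6.26–7.92%) of the mesothelial cells and in 3.29% of the lymphocytes. The Klk1 share of cluster 13 overlapped that of mesothelial cells, and its level was close to theirs, at 24.4 CPM, and below that of lymphocytes, at 30.2 CPM, so at this depth it could not be set apart from the level of cell classes outside the epithelium. In the developing gland clusters of the CO epithelium, for comparison, 48.2% of thinned cells held a Klk1 UMI and the level was 533 CPM.

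Among the 6048 genes with at least 20 CPM in cluster 13 or in the other DES epithelial cells, 460 (7.61%) were over 1.5-fold higher in cluster 13 and 279 (4.61%) were over 1.5-fold lower. X-linked genes were over-represented among those that were higher. Of 220 X-linked genes 191 (86.8%) were higher and 0 were lower, whereas of 5630 autosomal genes 249 (4.42%) were higher and 270 (4.80%) lower. The 220 included 63 genes under 20 CPM in the other cells, 57 of them higher, which entered through cluster 13 alone. Among X-linked genes at 20 to 50, 50 to 100, 100 to 300 and over 300 CPM in the other cells, 64 of 75, 37 of 41, 22 of 26 and 11 of 15 were higher. X-linked genes were 3.64% of the genes compared and 41.5% of those higher in cluster 13. The median X-linked gene stood 1.88-fold above its level in the other cells (25th to 75th percentile 1.64–2.15), and the median autosomal gene 1.02-fold (0.908–1.15).

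The difference was spread over the chromosome and over genes of all levels from 20 CPM in the other cells upward. No autosome showed it, with medians from -0.00 to 0.07 on the log2 scale and between 2.21% and 8.14% of an autosome's genes higher. None of the other 15 DES clusters showed it when set against its own complement, with X-linked medians from -0.15 to 0.10 and at most 4.94% of X-linked genes higher. Along the X, cut into 6 stretches of equal length, the medians were 0.89, 0.95, 0.91, 0.85, 1.07 and 0.93 on the log2 scale. By level in the other cells, the medians were 0.88 at 20 to 50 CPM, 0.88 at 50 to 100 CPM, 0.87 at 100 to 300 CPM and 0.64 for 15 genes over 300 CPM. The 63 genes under 20 CPM there, with a median of 1.07, entered through their level in cluster 13 alone, so their ratios were above 1 by the rule. Ratios clustered around their median, since 170 of the 220 genes lay between 1.5-fold and 2.5-fold, and 198 (90%) were at their highest in cluster 13 of all 16 clusters, against 9.68% of autosomal genes. Without cells over 10% mitochondrial UMIs 81.5% of X-linked genes were higher, and without possible doublets 84.9%. The library pooled 4 mice, so a difference between mice and a difference between cells of the same mouse cannot be told apart.

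**Figure D1:**
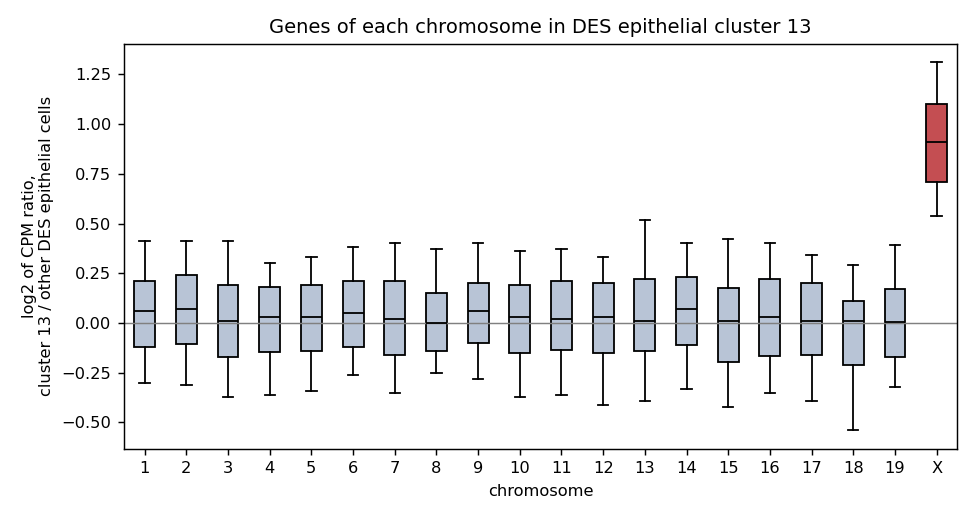
Log2 ratio of CPM in cluster 13 to CPM in the other DES epithelial cells, by chromosome, for genes with at least 20 CPM in either group (line, median; box, 25th to 75th percentile; whiskers, 10th to 90th percentile of genes). The X-linked genes stand apart with a median of 0.91, while the medians of the autosomes lie between -0.00 and 0.07.

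Housekeeping enzymes were among the X-linked genes that were higher, such as Hprt, which salvages purines, at 216 CPM in cluster 13 against 86.9 CPM in the other cells (ratio 2.49, 2.32–2.67), and Pgk1, a glycolytic kinase, at 237 against 129 CPM (1.84, 1.72–1.97). Ogt, which attaches N-acetylglucosamine to intracellular proteins, stood at 592 against 277 CPM (2.14, 2.05–2.23). Atrx, a chromatin remodeller, stood at 413 against 200 CPM. Uba1, which activates ubiquitin, stood at 187 against 80.7 CPM, and Atp6ap2, an accessory part of the vacuolar proton pump, at 303 against 123 CPM. The 15 genes over 300 CPM had the lowest median, but not all of them differed less. Slc25a5, which exchanges ADP and ATP across the inner mitochondrial membrane, stood at 1066 against 488 CPM (2.18, 2.11–2.25). Tmsb4x, an actin-binding peptide, stood at 20123 against 10702 CPM (1.88, 1.87–1.89) and the ribosomal protein gene Rps4x at 8309 against 5290 CPM (1.57, 1.55–1.59).

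Genes that escape X inactivation, a list chosen after the values were seen, stood lower in this order, with ratios of 1.65 (1.48–1.83) for Kdm6a, a histone demethylase, 1.52 for Eif2s3x, a translation initiation factor subunit, 1.36 for Kdm5c and 1.32 (1.24–1.42) for Ddx3x, an RNA helicase. All 4 were below the X-linked median of 1.88. Xist itself was not among the genes that were higher. It stood at 1335 CPM in cluster 13 and at 1594 CPM in the other cells, a ratio of 0.837 (0.814–0.861), and was 1 of 5 X-linked genes below their level in the other cells. The others were Porcn, an acyltransferase that Wnt ligands need for secretion, at 99.3 against 137 CPM, Ap1s2 at 18.9 against 24.7 CPM, Mid1 at 18.1 against 22.8 CPM, and Sat1 at 489 against 509 CPM. At the other end, Xlr stood at 59.6 against 5.85 CPM and Xlr4b at 26.3 against 2.47 CPM. Both belong to a multicopy family whose members share sequence, so their counts are uncertain, and the Xlr UMIs came from 24 cells with up to 35 in a single cell.

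Whether the difference lay in every cell or in a few was read from an X score for each cell, the UMIs of 558 X-linked genes under 300 CPM in the other cells, Xist left out, per 1000 UMIs of X-linked and autosomal genes. The score was defined after the X-linked genes had been seen to differ. The median score was 23.7 in cluster 13 (10th to 90th percentile 19.9–26.1), and the medians of the other DES clusters lay between 11.8 and 14. A score over 20 was found in 110 of the 123 cells (89.4%), with 15 cells between 18 and 22, so most cells carried it. Outside cluster 13, 72 of 4485 DES epithelial cells (1.61%) had a score over 20, among them 29 of the 669 cells of cluster 0 (4.33%) and 14 of the 166 cells of cluster 10 (8.43%). Cluster 10 had the lowest median depth, at 6344 UMIs, and 7 of its cells scored between 18 and 22. In the CO epithelium 4 of 2583 cells (0.155%) had a score over 20, and the CO cluster medians lay between 10.2 and 13.6. Outside the epithelium, mesothelial cells had median scores of 16.4 (DES) and 15.8 (CO), with 8.24% and 4.18% of cells over 20.

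**Figure D2:**
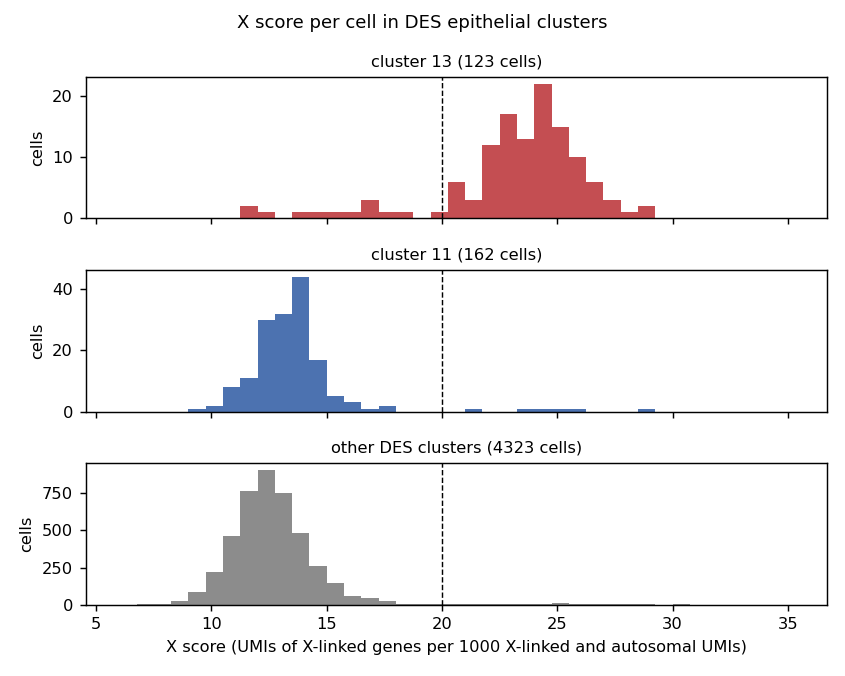
Number of cells by X score (UMIs of 558 X-linked genes per 1000 UMIs of X-linked and autosomal genes) in cluster 13, in cluster 11 and in the other DES clusters, with a dashed line at 20. Of the 123 cells of cluster 13, 110 lie over the line, while in cluster 11 and the other clusters only 72 of 4485 cells do.

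X-linked genes took 8.55% of the X-linked and autosomal UMIs of cluster 13 and 4.57 to 5.53% in each other DES cluster. The X score was alike in the 3 integrated clusters that held most of the cells. When the authors clustered CO and DES epithelium together, 81 of the 123 cells fell in integrated cluster 9, 27 in cluster 3 and 10 in cluster 6, and the median X scores of these subsets were 23.7, 24.0 and 23.6. The 133 cells of DES cluster 11 that also fell in integrated cluster 9 had a median of 13.3.

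Within cluster 13 the autosomal leading genes showed no common direction with the X score. In its 110 cells with a score over 20 and its 13 cells under 20, Calb1 stood at 172 and 216 CPM, Il1f6 at 55.9 and 78.7 CPM and Hdc at 117 and 87.1 CPM. Xist stood at 1363 CPM in the former and at 1068 CPM in the latter. The X-linked leading genes are part of the score, so their level in cells chosen by it is not informative. In the 72 cells of other clusters with a score over 20, 11 of the 13 leading genes that are not X-linked stood above their level in the remaining 4413 cells. The same share over all autosomal genes was not counted, so no link of these genes to the score can be read from the count. Il1f6 stood at 17.5 against 4.52 CPM, S100a6 at 353 against 150 CPM, Msx1 at 101 against 49.1 CPM and Calb1 at 45.5 against 14.3 CPM. The 2 exceptions were Sprr2b at 21 against 37.2 CPM and Lifr at 20.4 against 29.2 CPM. All 13 stood below their level in the cluster 13 cells with a score over 20. Calb1 was seen in 12.5% of the 72 cells and 9.52% of the rest, and S100a6 in 81.9% and 85.2%. The 72 cells were not spread over the clusters like the rest, and the part of their clusters in these levels was not tested.

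The 20 leading genes of cluster 13, ranked by their ratio among genes with at least 50 CPM and a UMI in at least 25% of its cells, held 7 on the X (Nhsl2, Flna, Cxx1a, Prps2, Mageh1, Nsdhl and Tenm1), and 14 of the 20 were highest in cluster 13 of all 16 clusters. Il1f6, which encodes the cytokine interleukin-36 alpha, led at 58.1 CPM against 4.66 CPM (ratio 12.5, 10.7–14.5), though cluster 15 was higher still at 66.3 CPM. Calb1, the calcium buffer calbindin, stood at 176 against 14.6 CPM (12.0, 11–13.1), and cluster 11 was higher at 219 CPM. Calb1 thus belonged to clusters 11 and 13 together, with cluster 15 next at 27.7 CPM. Selm, a selenoprotein of the endoplasmic reticulum, was highest in cluster 13, at 53.1 CPM against 13.1 CPM in the next cluster. Of the 8 genes with the highest ratio to the next cluster among those with at least 50 CPM in cluster 13, which leaves out Klk1, Selm was the 1 off the X. The others included Flna, Cdk16, a cyclin-dependent kinase, at 89.3 CPM against 33.5 CPM in the other cells, and Rab9, a GTPase of endosome traffic, at 104 against 44.6 CPM.

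Hdc, the enzyme that makes histamine, stood at 114 CPM against 19.4 CPM (5.89, 5.31–6.51), with the next cluster at 94.2 CPM. S100a6, a calcium-binding protein, stood at 773 against 152 CPM (5.08, 4.89–5.28). Crabp2, which carries retinoic acid to its nuclear receptor, stood at 120 against 30.9 CPM (3.88, 3.52–4.27), behind cluster 11 at 139 CPM. The homeobox gene Msx1, expressed in uterine epithelium before implantation, stood at 168 against 49.7 CPM (3.38, 3.12–3.67), with cluster 11 at 189 CPM and cluster 8 at 167 CPM. Sprr2b, a small proline-rich protein of cornified envelopes, stood at 185 against 37.0 CPM, but its level in cluster 15 was 1123 CPM. Flna, an X-linked gene for the actin crosslinker filamin A, stood at 119 against 31.3 CPM (3.80, 3.45–4.19), above the X-linked median. Among the rest were Slc14a1, a urea transporter, at 69.1 against 21.4 CPM, Mogat1, which acylates monoacylglycerol, at 81.2 against 28.2 CPM, and Lifr, a receptor subunit for leukemia inhibitory factor, at 82.2 against 29.1 CPM, with cluster 11 at 87.2 CPM.

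**Figure D3:**
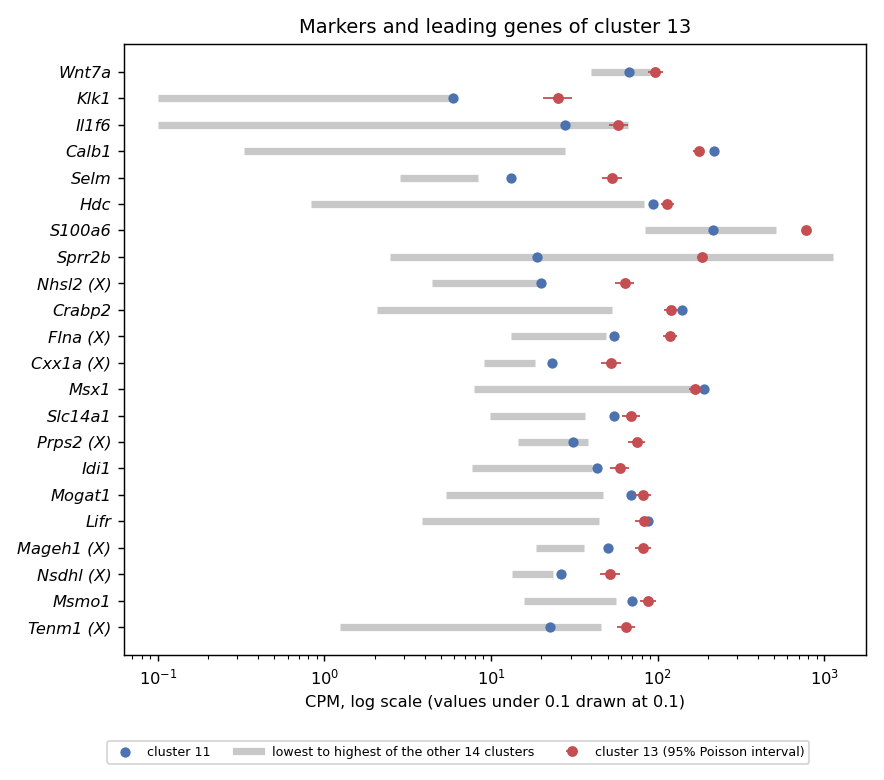
Level (CPM of summed UMIs, log axis) of Wnt7a, Klk1 and the 20 leading genes in cluster 13 (red, with the 95% exact Poisson interval), in cluster 11 (blue) and as the range over the other 14 DES clusters (grey bars), with X-linked genes marked (X). Wnt7a and Klk1 are highest in cluster 13, whereas Calb1, Crabp2, Msx1 and Lifr are higher in cluster 11, and the grey bars of Il1f6 and Sprr2b reach past cluster 13.

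Several leading genes were unevenly spread among the 123 cells. The 13 cells with most UMIs of Calb1 held 52.9% of its UMIs in the cluster, and the same share was 51.0% for Klk1 and 56.2% for Sprr2b, but 31.7% for Crabp2 and 32.1% for S100a6. By integrated cluster, Calb1 stood at 211 CPM in the cells of cluster 9, at 84.6 CPM in those of cluster 3 and at 23.4 CPM in those of cluster 6, and Klk1 at 29.5, 13.4 and 5.84 CPM. Msx1 followed the same order, at 186, 105 and 70.1 CPM. Il1f6 stood at 57.5, 66.8 and 11.7 CPM, and Sprr2b at 186, 230 and 46.7 CPM, so that these were also lowest in the 10 cells of cluster 6, while the intervals of Il1f6 in clusters 9 and 3 overlapped. Some were also high in mesothelial cells of the same library, with S100a6 at 5661 CPM, Selm at 646 CPM and Prps2 at 311 CPM there. The mesothelial markers summed to 37.3 CPM in cluster 13, to 27.9 CPM in the other DES epithelial cells and to 3432 CPM in mesothelial cells, and their part in these levels was not tested.

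Genes of cholesterol synthesis and uptake were higher in cluster 13 as a group. The list was drawn up after Idi1, Msmo1 and Nsdhl had been seen among the leading genes, so its count is a description. Cells make cholesterol from acetyl-CoA through mevalonate, isoprenoids and squalene, and the transcription factor SREBP-2 drives the genes of the pathway when sterols are scarce. Of 24 genes 20 reached 20 CPM, and 17 of these were over 1.5-fold higher and 0 lower, beside 7.61% and 4.61% of all genes, with a median log2 ratio of 1.06 against 0.04 over all 6048 genes. Some of the 20, among them Sqle, Mvd, Nsdhl and Insig1, reached 20 CPM in cluster 13 alone, so their ratios were above 1 by the rule. Only 2 of the 20, Nsdhl and Ebp, are X-linked. Summed over all 24 genes, with no minimum level, it was 1187 CPM in cluster 13 and 598 CPM in the other cells.

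An early step was among the genes that were higher, with Hmgcs1, which condenses acetyl-CoA units on the way to mevalonate, at 66.7 against 32.0 CPM. In the isoprenoid steps Mvd stood at 25.7 against 10.1 CPM, Idi1 at 59.4 against 20.4 CPM (ratio 2.91, 2.53–3.33) and Fdps at 91.2 against 34.3 CPM. Among the enzymes that make and oxidize squalene, Fdft1 stood at 55.4 against 25.1 CPM and Sqle at 42.0 against 13.4 CPM (3.15, 2.66–3.70). The sterol steps followed, with Cyp51 at 53.1 against 20.5 CPM and Msmo1 at 87.5 against 31.8 CPM. Among the 3 genes within 1.5-fold were Insig1, which retains SREBP in the endoplasmic reticulum, at 25 against 19.6 CPM, and Sc5d at 29.7 against 20.1 CPM.

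Cluster 13 was highest of the 16 clusters for 12 of the 20 genes, and cluster 11 was close to it, with Fdps at 71.7 CPM, Msmo1 at 69.9 CPM and Sqle at 42.7 CPM. The levels were not high beside the CO luminal epithelium, where Fdps stood at 163 CPM, Msmo1 at 172 CPM, Idi1 at 143 CPM and Hmgcs1 at 194 CPM.

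**Figure D4:**
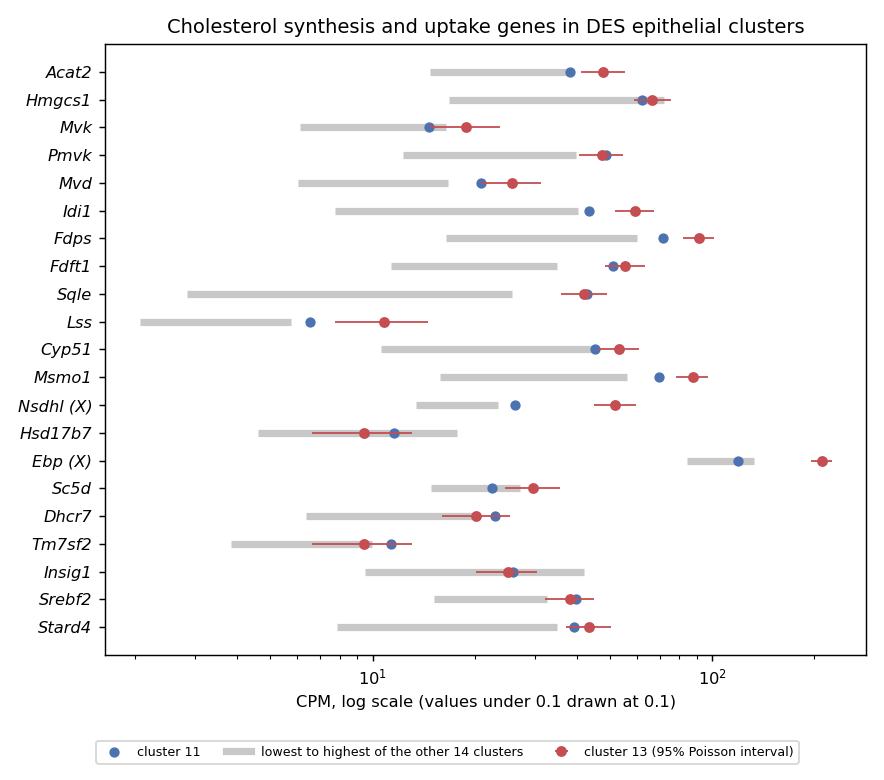
Level (CPM of summed UMIs, log axis) of 21 cholesterol synthesis and uptake genes in cluster 13 (red, with the 95% exact Poisson interval), in cluster 11 (blue) and as the range over the other 14 DES clusters (grey bars). Fdps, for example, stands at 91.2 CPM in cluster 13 and at 71.7 CPM in cluster 11, beyond the other clusters, while Insig1 lies within its grey bar.

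The promoters of this list were searched for the sterol regulatory element read by SREBP, written TCACNCCAC, for its shorter form TCACNCCA, which lies within it, and for CCAAT, the box bound by NF-Y, on both strands from 250 bases before to 50 after each start in RefSeq (GRCm38.p6). Promoters were found for 17 of the genes, 20 promoters in all. The full element was in 1, that of Hmgcs1, against 1.24% of all 32851 promoters, and the shorter form was in 3, those of Hmgcs1, Msmo1 and Srebf2, against 4.36%. CCAAT was in 16 of the 20, against 37.4% of all. The promoters of Hmgcs1 (chr13:119690101-119690400, plus strand) and Msmo1 (chr8:64733529-64733828, minus strand) are shown as the enzyme genes with the full element and with the shorter form alone, respectively, with each match to these letters on either strand in capitals.
Hmgcs1: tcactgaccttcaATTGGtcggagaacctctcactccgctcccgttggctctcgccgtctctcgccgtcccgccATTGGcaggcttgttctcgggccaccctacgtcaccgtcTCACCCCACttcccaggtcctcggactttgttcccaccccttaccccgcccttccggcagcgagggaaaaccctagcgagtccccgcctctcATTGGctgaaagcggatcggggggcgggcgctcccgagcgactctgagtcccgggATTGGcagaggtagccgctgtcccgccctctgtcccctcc
Msmo1: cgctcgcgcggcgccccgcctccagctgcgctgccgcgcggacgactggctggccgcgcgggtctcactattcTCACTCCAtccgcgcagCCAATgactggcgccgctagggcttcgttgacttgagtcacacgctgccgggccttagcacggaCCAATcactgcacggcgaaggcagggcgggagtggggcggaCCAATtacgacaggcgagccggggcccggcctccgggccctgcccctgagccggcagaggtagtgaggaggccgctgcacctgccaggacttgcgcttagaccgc
A match is a description of the letters in this window.

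The genes lowest in cluster 13 relative to the other DES epithelial cells included genes of antigen presentation by MHC class II. Of the 10 with the lowest ratios among genes with at least 50 CPM in the other cells, 8 were at their lowest in cluster 13 of all 16 clusters and 0 were X-linked. Crh, the stress peptide corticotropin-releasing hormone, stood at 1.84 CPM against 146 CPM (ratio 0.0126, 0.00505–0.0259), with 5.69% of cells holding a UMI against 47.2%. Olfm4, a secreted glycoprotein of crypts and tumours that the study followed as a cancer gene, had 3 UMIs in the cluster, 0.788 CPM against 60.0 CPM (0.0131, 0.00271–0.0384). Its level was highest in clusters 5 and 15, at 685 and 257 CPM, and also low in clusters 4, 8 and 11, at 2.29, 3.01 and 3.27 CPM. H2-Ab1 and H2-Aa, which form an MHC class II molecule, stood at 2.10 against 74.3 CPM and at 3.68 against 72.6 CPM, and Cd74, their invariant chain, at 32.6 against 553 CPM. Of the 5 MHC class II genes with 20 CPM, 4 were over 1.5-fold lower, beside 4.61% of all genes, with a median log2 ratio of -4.22. All but Cd74 reached 20 CPM in the other cells alone, so their ratios were below 1 by the rule. The low level was not confined to cluster 13. H2-Ab1 also stood at 5.56, 8.78, 8.96, 6.35 and 4.81 CPM in clusters 11, 4, 3, 8 and 12, and Cd74 at 43.2, 58.5, 54.8, 47.4 and 41.2 CPM, so the pooled level of the other cells came from the remaining clusters, such as cluster 7 with Cd74 at 1628 CPM. Il33, an alarmin stored in epithelial nuclei, stood at 7.36 against 121 CPM, and within cluster 13 at 4.97 CPM in integrated cluster 9, 4.45 CPM in cluster 3 and 58.4 CPM in cluster 6. Krt5, a basal keratin, stood at 6.83 against 77.5 CPM, and the urothelial gene Upk1a at 3.41 against 70.8 CPM. Both were also low in clusters 8 and 11, with Krt5 at 5.51 and 8.34 CPM and Upk1a at 4.68 and 5.40 CPM. Krt5 was highest in clusters 5, 12 and 14, at 645, 355 and 330 CPM, and Upk1a in cluster 5, at 421 CPM.

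**Figure D5:**
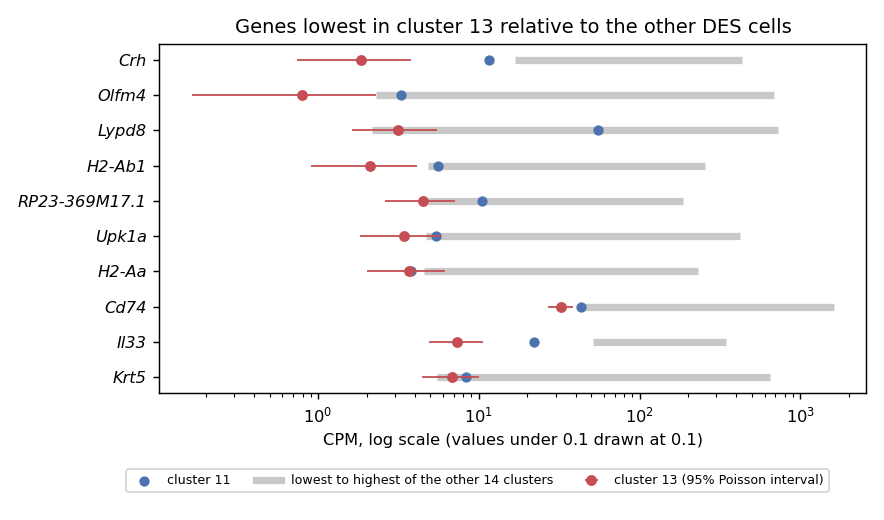
Level (CPM of summed UMIs, log axis) of the 10 genes with the lowest ratio in cluster 13 (red, with the 95% exact Poisson interval), in cluster 11 (blue) and as the range over the other 14 DES clusters (grey bars). Cluster 13 is the lowest cluster for 8 of the 10, among them Crh at 1.84 CPM and Olfm4 at 0.788 CPM.

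The lists of hormone, gland and proliferation genes gave a mixed picture, and their counts stand beside 7.61% of all genes higher and 4.61% lower. Of 7 steroid receptors and coregulators 2 were higher, among them Pgr, the progesterone receptor, which stood at 207 against 94.0 CPM (2.20, 2.05–2.36) and at 214 CPM in cluster 11, whereas Esr1, the estrogen receptor, stood at 243 against 217 CPM. Of 11 estrogen-responsive genes 0 were higher and 4 lower, among them the water channel Aqp5 at 32.8 against 172 CPM, Clca1 at 865 against 1724 CPM and the mucin Muc1 at 156 against 266 CPM. Beside Klk1, Klk11 was the other kallikrein with 20 CPM, and it was higher at 33.9 against 7.05 CPM (4.81, 3.97–5.77), with cluster 11 at 31.3 CPM. The developing gland list nevertheless did not move together. Of its 6 genes Klk1 was higher and Prap1, a secreted proline-rich protein, lower at 412 against 2520 CPM. Prap1 was lower still in clusters 11 and 8, at 211 and 138 CPM, while cluster 5 held it at 8956 CPM. In the CO developing gland clusters Prap1 stood at 50304 CPM. Sox9, a progenitor and gland transcription factor and the single mature gland gene with 20 CPM, stood at 11 against 54.1 CPM, and Sult1d1, a sulfotransferase of glands, at 48.1 against 17.9 CPM, with cluster 11 higher at 62.7 CPM.

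In the Wnt pathway, Wnt7a was the 1 of 4 ligands that was higher, Fzd6, a receptor, was the 1 of 6 receptors, at 89.8 against 53.0 CPM and at 91.1 CPM in cluster 11, and of 8 targets 1 was higher and 2 lower. None of the 8 genes of secretion and intracellular signalling was past 1.5-fold. The counts of these and the following lists stand beside 7.61% of all genes higher and 4.61% lower. Members that reached 20 CPM in 1 group alone, such as Egr1, Ctgf and Ube2c, had their direction fixed by the rule. Of 17 immediate early genes, which dissociation can induce, 9 were lower, with Egr1 at 3.41 against 37.3 CPM. The level in the other cells came largely from cluster 9, where Egr1 stood at 544 CPM, whereas clusters 0, 3, 4 and 11 held it at 4.71, 7.08, 7.69 and 8.02 CPM. Jun stood at 173 CPM in cluster 13, above most other clusters, and Ctgf was the 1 that was higher, at 34.9 against 7.73 CPM. Of 21 S phase genes 5 were higher and 1 lower, and of 17 G2/M genes 0 were higher and 4 lower, with the mitotic enzyme Ube2c at 7.36 against 47.9 CPM. Rad51b, a DNA repair gene that the study followed in cancer cells, stood at 65.4 against 112 CPM, and cluster 5 carried it at 532 CPM, while clusters 0, 7, 10 and 15 lay below cluster 13. Glutathione S-transferases were lower for 5 of 11 genes, and mucins and trefoil factors for 3 of 3. Claudins and tight junction genes (0 higher and 1 lower of 13), heat shock and unfolded protein genes (2 and 2 of 19), interferon-stimulated genes (0 and 3 of 9), glycolysis and hypoxia genes (2 and 0 of 14), Notch genes (1 and 1 of 6), Müllerian and Hox transcription factors (1 and 3 of 15), luminal genes (1 and 3 of 5), stem cell genes (1 and 1 of 6), ion and water transport genes (2 and 2 of 10), squamous genes (0 and 1 of 5), simple keratins (0 and 0 of 4), Wnt antagonists (0 and 0 of 1) and the cancer cell genes of the study (0 and 3 of 5, a list of mixed directions) were also counted.

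DES cluster 11 was the most like cluster 13, with a Spearman correlation of 0.952 across 3701 genes with 50 CPM in any DES cluster, followed by cluster 4 at 0.930 and cluster 3 at 0.926. Genes are not independent replicates, and all clusters came from the same library. Set against cluster 11 alone, 305 of 6033 genes (5.06%) were over 1.5-fold higher in cluster 13, of which 181 were X-linked, and 137 (2.27%) were lower, of which 1 was X-linked. The X-linked median was 0.81 on the log2 scale and the autosomal median -0.03, so the clusters that were closest overall differed in the level of X-linked genes. Off the X, Cyp21a1, the steroid 21-hydroxylase, stood at 52.0 CPM against 8.51 CPM in cluster 11, Serpina1c, a protease inhibitor, at 209 against 60.2 CPM and Uox, urate oxidase, at 95.4 against 32.1 CPM. Against cluster 4, 485 of 5994 genes (8.09%) were higher, 183 of them X-linked, and 183 (3.05%) were lower.

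No CO group matched cluster 13 in all its leading genes. CO cluster 12, which the study kept apart from the CO luminal and glandular clusters, held Wnt7a at 81.5 CPM, Calb1 at 230 CPM, Hdc at 139 CPM, Slc14a1 at 106 CPM, Pgr at 166 CPM and Msx1 at 531 CPM, each of the order of its level in cluster 13 or above it. Crabp2 and Mogat1 were low there, at 2.26 and 9.62 CPM, and Klk1 was at 1.13 CPM, with 0 of 71 thinned cells holding a UMI, which allows a share of up to 4.23%. In the CO developing gland clusters Klk1, Hdc and Il1f6 stood at 533, 234 and 55.8 CPM, but Wnt7a was at 4.35 CPM. Hprt stood between 62.9 and 84.5 CPM in the CO groups. The CO and DES cells came from a single library each, so treatment and library cannot be told apart.

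The uterine sections gave the single comparison of CO and DES with replicates, 2 sections against 2. Before 2 mice per group were chosen, a pathologist had evaluated sections for the study, in DES sections for uterine adenocarcinoma. Blocks were then cored to areas of interest, and the part of this choice in the differences was not tested. The study reported a substantial tissue fold in the second CO section and limited cluster identification in the second DES section. It based most of its analyses on the first section of each group, whereas both are used here. By the quasi-likelihood test of edgeR, adjusted by the Benjamini-Hochberg method, 376 of 14098 genes (2.67%) were higher and 371 (2.63%) lower in DES sections. Of Wnt7a, Klk1 and the 20 leading genes 21 could be tested, Tenm1 not. In edgeR 0 passed 0.05 as higher and 3 as lower. The same test gave an unadjusted p under 0.05 for 10 of the 21, beside 3438 of all 14098 genes. A section holds many cell types, and fewer cells of a type and less RNA per cell cannot be told apart. The count of leading genes that were lower changed with the section left out, as did the count over all genes, though not in step. Without either DES section 0 leading genes and 0 of 14657 or 14708 genes were lower in DES. Without the first or second CO section 9 and 11 leading genes were lower, beside 1508 of 14538 and 1188 of 14505 genes.

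Wnt7a stood at 14.7 and 9.43 CPM in the CO sections and at 49.9 and 32.1 CPM in the DES sections, so the groups did not overlap. The log2 fold change was 1.54 (SE 0.33), with an adjusted p of 0.0716 in edgeR, between 0.00236 and 0.382 over the alternatives. Klk1 stood at 4.64 and 2.54 CPM in CO and at 0.219 and 0.304 CPM in DES sections, the latter from 2 and 3 UMIs. It was lower by the test, with a log2 fold change of -3.92 (SE 0.63, edgeR adjusted p 0.0399, 0.00137–0.251 over the alternatives). Msx1 stood at 77.7 and 87.1 CPM in CO and at 13.8 and 7.29 CPM in DES sections, a log2 fold change of -3.18 (SE 0.33, edgeR adjusted p 0.0212, 4.74e-16–0.0860). Flna, also a smooth muscle gene, stood at 1768 and 2278 CPM in CO and at 964 and 941 CPM in DES sections, a log2 fold change of -1.29 (SE 0.21, edgeR adjusted p 0.0394, 1.51e-06–0.280). These 3 genes thus were higher in cluster 13 than in the other DES epithelial cells and lower in whole DES sections than in CO sections. Calb1 stood at 27.5 and 1.63 CPM in CO and at 1.10 and 0.304 CPM in DES sections, with an adjusted p of 0.158 in edgeR (0.000709–0.510 over the alternatives), so that the CO sections differed from each other more than the second did from DES.

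Within the DES sections Wnt7a was unevenly placed. Among the spot clusters with over 40 spots it was highest in cluster 2 of each section, at 130 CPM in the first, over 286 spots, and at 53.9 CPM in the second, over 228 spots. Calb1 stood at no more than 5.99 CPM in any DES spot cluster and Klk1 at 2 and 3 UMIs per section, so the position of cluster 13 cells could not be read from them at this depth.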

How the data were processed

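Single-cell RNA was measured in 1 CO and 1 DES library and on spatial slides in sections of 2 CO and 2 DES uteri. The authors aligned reads to mm10 (Cell Ranger 3.0.1 and Space Ranger 1.2.2, per the labels) and deposited UMI counts per gene, as whole numbers with no normalization, with a cell annotation that gave the clusters, UMI totals and quality columns used here. 350 annotated cells, none of them in cluster 13, had no counts and were left out. Doublets were not called here, and the alternatives left out possible ones.

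The UMIs of a gene were summed within a cluster and divided by the total of that cluster (CPM, per 1000000 UMIs). Genes with at least 20 CPM in either group were compared, and a ratio over 1.5-fold or its inverse counted as higher or lower, with no test. A gene that reached 20 CPM in 1 group alone entered through that group, which fixes the direction of its ratio. Intervals are exact at the 95% level (Poisson for CPM, conditional binomial for ratios, Clopper-Pearson for shares) and cover counting error only. A count of 0 is instead given a bound of 3 UMIs or, for a share, 3 cells. Of the 6048 genes 5863 were placed on a chromosome, by GENCODE M21 or, for 90 of them, through a RefSeq synonym (GRCm38.p6).

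Named genes were Wnt7a and Klk1, the 20 genes with the highest and the 10 with the lowest ratio, the 8 with the highest ratio to the next cluster (at least 50 CPM), up to 3 of each end of every gene list, and markers of other cell types. X-linked genes, the escape and cholesterol lists, the X score and the comparisons by it were chosen after their values were seen, and genes of these that the text describes were picked by role. The members and all lists were chosen with earlier results of these data known.

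Sections held 9117099 to 12506177 UMIs. Their counts were summed over spots and tested with edgeR 4.0.16 (quasi-likelihood, TMM, filterByExpr, no block; R 4.3.3), with DESeq2 1.42.0 as an alternative. Section p-values measure the spread between 2 sections per group, each from another mouse, so differences between mice and between sections cannot be told apart. An exact permutation of 2 against 2 could not pass 0.05. The scripts were tested on simulated data. Section numbers were given in accession order and mark no shared mouse. The correlation of same-numbered sections' deviations from their group means was -0.03. Some genes of the lists are counted but not reported here by name.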

Additional observations from a re-analysis of the deposited data

How the results depend on the processing

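Of 1300 values of 186 named genes in cluster 13 under the alternatives, 1069 stayed within the interval of the reported ratio, 231 moved past it and 0 changed direction. The counts of genes higher and lower (460 and 279) were 682 and 515 without cells over 10% mitochondrial UMIs, which left 37 cells of cluster 13, and 528 and 438 without possible doublets, a rule (over 2 times the median UMIs, or 2 or more UMIs of a myeloid, lymphocyte or mesothelial marker) that 64 of its 123 cells met. They were 2949 and 4962 with no minimum CPM and 183 and 118 at 2-fold, and the count of higher genes was 249 on the autosomes alone. The share of X-linked genes that were higher was 40.0% at 2-fold, and their median log2 ratio lay between 0.81 and 0.95 under every alternative run. Cluster 11 was the most alike cluster under every measure run. With no thinning 82.9% of cluster 13 cells held a UMI of Wnt7a and 39.8% of Klk1. Alternatives that split cells by X score, integrated cluster or chromosome were chosen after seeing the data.

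Of the leading genes in the sections (0 higher and 3 lower in DES), DESeq2 called 1 higher and 8 lower, beside 822 and 969 of all 14098 genes (376 and 371 in edgeR). With the section number as a replicate block 1 was higher and 2 lower, beside 298 and 229 of all genes, and the log2 fold change turned to 0.13 for Nsdhl and 0.27 for Msmo1. The section numbers pair no mice. When each section was left out in turn, with the lone section assumed to vary like the others, 0 to 3 were higher and 0 to 11 lower, beside 3 to 1311 and 0 to 1508 of all genes, and the log2 fold change ranged from -3.14 to 2.68 for Il1f6, -0.32 to 0.03 for Selm, -5.00 to 0.36 for Sprr2b, -2.23 to 0.89 for Idi1, -0.68 to 1.00 for Nsdhl and -1.48 to 2.30 for Msmo1. The causes were not tested. Each treatment had a single library of cells, and low UMI counts in the sections limit Klk1.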
